A study of Mus musculus with 2 samples.

Results

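The core spliceosome proteins described here are the products of 56 mouse genes, taken from the 21474 protein-coding genes among the 43346 gene entries of the deposited tables. They were chosen by gene name alone: the branch point binder Sf1, the U2AF, SF3A and SF3B genes, the Snrp and Snrnp genes of the small nuclear ribonucleoproteins (snRNPs), the numbered Lsm genes and the numbered Prpf genes, leaving out Snrpn and Snrnp25. The cells were G1E, an immortalised line from a male mouse at postnatal day 0; by its labels it is a Gata1- erythroid progenitor, that is, a red cell precursor lacking the transcription factor GATA1. No treatment is named in the labels. Polyadenylated RNA was read from both ends in 2 libraries, replicate 1 and replicate 2, which formed 1 group, so there was no comparison of conditions. Both libraries cite the same cell sample, and the spread between them may therefore be technical.

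Introns are removed from precursor RNA by the spliceosome, which is built stepwise on each intron from snRNPs and further proteins. The U1 snRNP pairs with the start of the intron, SF1 and U2AF mark the branch point and the end of the intron, and the U2 snRNP with its SF3A and SF3B subcomplexes then replaces SF1. The U4/U6.U5 tri-snRNP joins next, and rearrangements by helicases produce the active enzyme. The U1, U2, U4 and U5 RNAs each carry a ring of Sm proteins, and the U6 RNA carries a related ring of LSM proteins, each ring holding 1 copy of every subunit. Erythroid precursors depend on this machinery, and acquired changes in genes such as SF3B1 and U2AF1 are known from human blood disorders.

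Replicate 1 held 61982634 expected counts (estimated read pairs per gene) and replicate 2 held 80658648, of which the 56 genes took 856045 and 1025497. Levels are given in TPM, an abundance scaled by length that can be compared between genes. All 8 erythroid markers examined were detected, the lowest being Tfrc at 3.42 and 13.82 TPM, with Gata2 at 1013 ± 102 TPM (SD, n = 2) and Zfpm1 at 1195 ± 51.2 TPM, and the defining markers Snap25, Rbfox3, Col1a2, Pdgfra and Cd3e of neurons, fibroblasts and T cells were listed at 0 in both libraries. The remaining off-type marker, Map2 of neurons, had 1 count in each library (0.01 and 0 TPM). Gata1 RNA itself stood at 48.0 and 46.6 TPM; the labels do not say which part of the gene is altered, so this level is no check of the genotype. Values written as mean ± SD below are over the 2 libraries.

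Nearly all core spliceosome genes were expressed, and at a higher median than detected genes in general. In both libraries 55 of the 56 (98.2%) reached 1 TPM, against 40.0% of all protein-coding genes. The exception was Lsm5. At 100 TPM or more in both libraries there were 21 of the 56 (37.5%), against 5.56% of protein-coding genes. The median of the 56 genes was 54.2 TPM in replicate 1 and 56.3 TPM in replicate 2 (55.2 ± 1.48), while protein-coding genes detected in both libraries had a median of 18.0 ± 1.45 TPM. Together they made up 1.09% of all TPM in replicate 1 and 0.999% in replicate 2.

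Within the set the levels were uneven. The 10 highest genes were the same in both libraries (Sf1, Sf3b4, Sf3a2, Snrnp70, Snrpa, Snrpb, Snrpc, Lsm4, U2af2 and Snrpd1), and they held 75.0% of the summed TPM of the 56 genes in replicate 1 and 68.8% in replicate 2. Sf1 alone held 21.3% and 17.3%. At the other end, 7 genes stayed under 10 TPM in both libraries and 4 of these under 5 TPM. The order of the 56 genes was nearly the same in the 2 libraries, with a Spearman correlation of 0.986 across genes, which are not independent replicates.

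**Figure D1:**
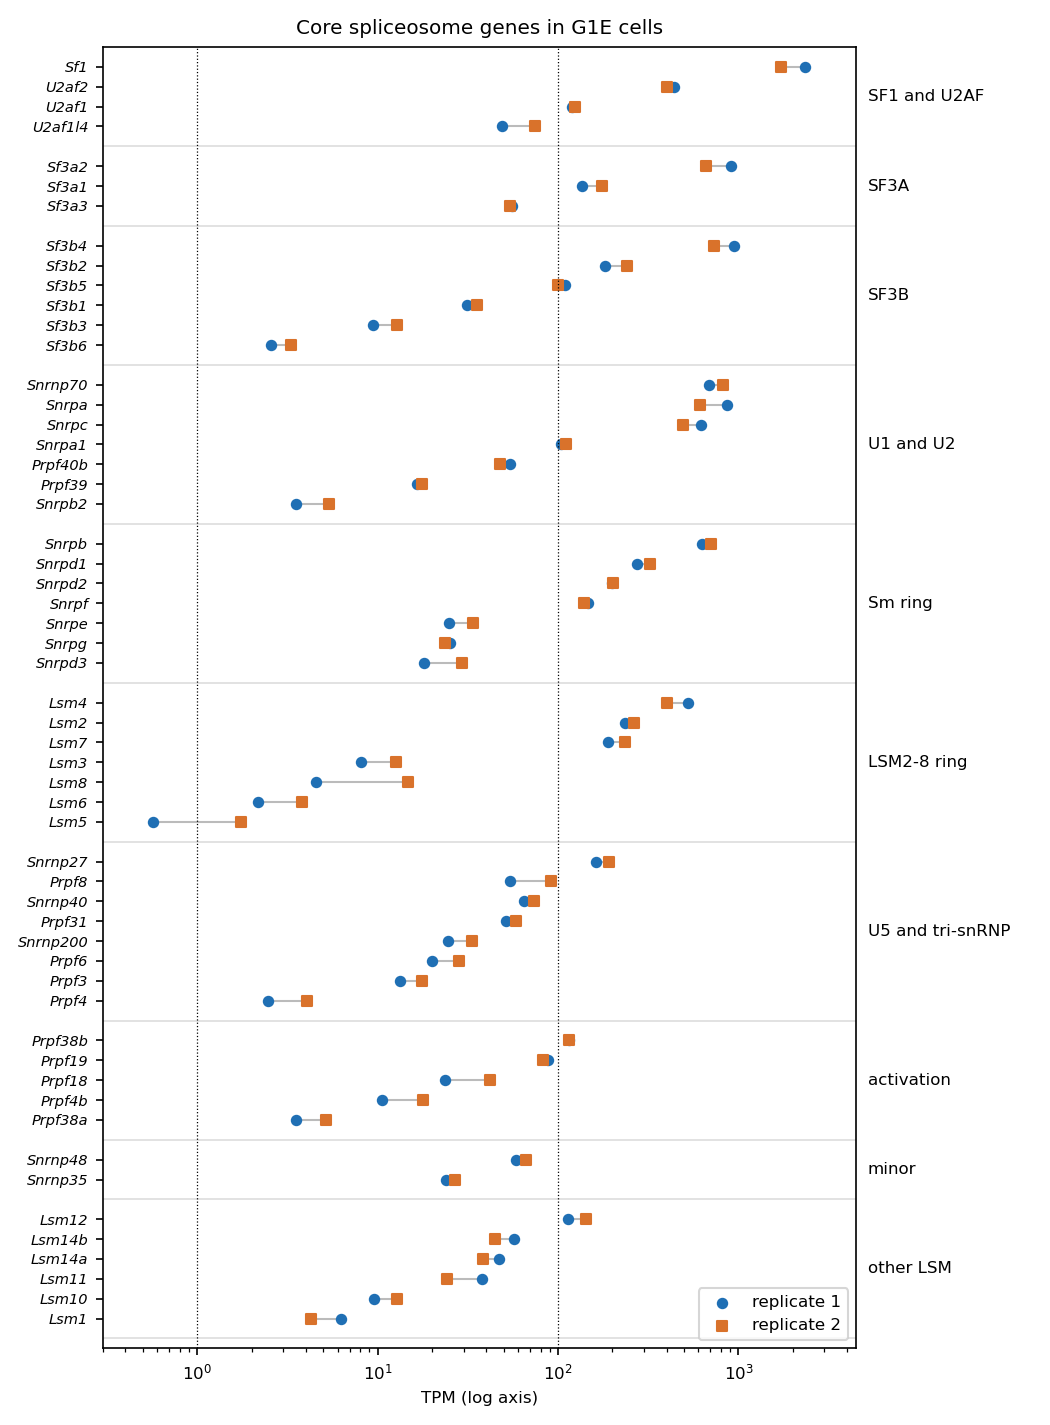
TPM (log axis) of 55 of the 56 core spliceosome genes in replicate 1 (circles) and replicate 2 (squares), grouped by complex, with dotted lines at 1 and 100 TPM. Every group but the minor spliceosome spans at least 1 order of magnitude, from Sf1 at 2331.81 and 1732.52 TPM down to Lsm5 at 0.57 and 1.74 TPM.

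Sf1 encodes the protein that first binds the branch point of an intron, and it had the highest TPM and the highest expected count of the 56 genes. The gene (ENSMUSG00000024949.13, mm10 chr19:6363690-6378030, plus strand) stood at 2331.81 TPM in replicate 1 and 1732.52 TPM in replicate 2, from 129377 and 138143 counts. Its mean was 2032 ± 424 TPM, and in each library it exceeded the next gene of the set by mean level, Sf3b4, at 940.19 and 731.16 TPM. The short coding transcript Sf1-205, of 755 bases, held 40.55% and 30.75% of the gene's TPM. The longer Sf1-201, annotated as a target of nonsense-mediated decay (NMD, the degradation of RNAs with an early stop), held 11.38% and 12.52% of the TPM but 35.3% and 34.1% of the counts. The gene's TPM, and so its rank and its share of the set, therefore rested on how reads were divided among transcripts of unlike length. Its count did not, but counts are not scaled by length.

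The U2AF dimer, which reads the pyrimidine tract and the AG at the end of the intron, had more RNA for its large subunit than for its small one. U2af2, the large subunit, had 439.27 and 401.36 TPM, and U2af1, the small subunit, had 119.04 and 124.11 TPM. The ratio of U2af2 to U2af1 was 3.69 in replicate 1 and 3.23 in replicate 2 (3.46 ± 0.323), so the gap between the subunits was larger than the spread between libraries. Sf1 exceeded U2af2 by 5.31 and 4.32 times on the TPM scale. This ratio rested on short Sf1 forms: Sf1-205, Sf1-206 and Sf1-215, of 755, 905 and 513 bases. They held 40.55%, 19.38% and 22.03% of the Sf1 TPM in replicate 1, and 30.75%, 23.96% and 20.44% in replicate 2. U2af2-201, which held 95.98% and 90.58% of the U2af2 TPM, has 2202 bases. U2af1l4, a paralogue of the small subunit, had 49.01 and 74.28 TPM, below U2af1 in both libraries by 2.43 and 1.67 times.

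U2af1 is made in alternative forms that differ in a single coding exon, exon 3 of 8, present in U2af1-201 or U2af1-202 in mutually exclusive versions of 67 bases each. The versions are shown because the share of each form is read from these bases; capitals mark the bases at which they differ, and both are written 5′ to 3′ on the minus strand of mm10, from the GENCODE M21 transcripts.
U2af1-201, chr17:31651646-31651712: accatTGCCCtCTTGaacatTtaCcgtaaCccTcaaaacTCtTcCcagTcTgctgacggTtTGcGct
U2af1-202, chr17:31652502-31652568: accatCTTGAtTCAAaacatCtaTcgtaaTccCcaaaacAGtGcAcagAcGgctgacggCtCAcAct
The exons shared 44 of 67 bases (65.7% identity) and differed at 23. U2af1-201 was the leading form in both libraries, with 96.5% of the gene's TPM in replicate 1 and 86.32% in replicate 2. U2af1-202 had 3.5% and 13.68%, from 177.75 and 911.52 expected counts. The deposited intervals for its TPM, 1.54 to 9.88 in replicate 1 and 13.0 to 22.9 in replicate 2, did not overlap. The level of the whole gene differed by less than this, at 121.6 ± 3.59 TPM. The transcript models of the tables give both forms a length of 907 bases, where those of M21 differ in their ends.

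SF3A and SF3B are the U2 snRNP subcomplexes that hold the branch point. In SF3A, Sf3a2 had 905.7 and 658 TPM, Sf3a1 had 135.66 and 175.19 TPM, and Sf3a3 had 55.79 and 54.17 TPM, an order that was the same in both libraries. In SF3B, Sf3b4, which contacts RNA near the branch point, had 940.19 and 731.16 TPM. Sf3b1, the large scaffold of the complex, had 31.3 and 35.61 TPM, far below Sf3b4 in both libraries. Sf3b2 (181.46 and 241.33 TPM) and Sf3b5 (109.84 and 99.51 TPM) lay between them, and Sf3b3 was at 9.44 and 12.8 TPM. The lowest was Sf3b6, whose protein touches the branch point adenosine, at 2.56 and 3.33 TPM from 139 and 228 counts. RNAs of subunits present in equal copy in the complex thus covered a 367-fold range in replicate 1 and a 219.6-fold range in replicate 2.

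Among proteins particular to the U1 snRNP, which recognises the start of the intron, the core subunits had high RNA levels. Snrnp70 had 688.02 and 817.57 TPM, Snrpa 859.32 and 614.32 TPM, and Snrpc 622.44 and 490.96 TPM. The order of these 3 genes was not settled, since Snrpa was the highest in replicate 1 and Snrnp70 in replicate 2. The more loosely bound U1 factors were lower, with Prpf40b at 53.86 and 47.97 TPM and Prpf39 at 16.59 and 17.61 TPM. The leading form of Prpf40b was Prpf40b-204, of 780 bases, at 19.37 and 17.93 TPM. The longer coding forms Prpf40b-202 and Prpf40b-201 had 4.19 and 0 TPM in replicate 1, and 2.62 and 1.73 TPM in replicate 2. Snrpa1 and Snrpb2 encode a pair of partner proteins of the U2 snRNP that bind its RNA together, and their levels were far apart: Snrpa1 had 104.52 and 110.11 TPM, and Snrpb2 had 3.53 and 5.37 TPM. That is a ratio of 29.6 in replicate 1 and 20.5 in replicate 2.

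The 7 genes of the Sm ring were all detected, and 4 of them exceeded 100 TPM in both libraries. Snrpb had 627.32 and 704.71 TPM, Snrpd1 275.1 and 324.72 TPM, Snrpd2 200.32 and 200.66 TPM, and Snrpf 146.36 and 139.74 TPM. The other 3 formed a lower tier: Snrpe at 24.89 and 33.8 TPM, Snrpg at 25.23 and 23.59 TPM, and Snrpd3 at 18.07 and 29.44 TPM. Within this lower tier the order differed between the libraries, whereas the gap to Snrpf did not close in either. Snrpb as a gene exceeded Snrpd3, its direct neighbour in the ring, by 34.7 and 23.9 times. For the coding Snrpb-201 alone, at 547.75 and 394.87 TPM, the excess was smaller, above all in replicate 2. Snrpg shared reads with other entries of the tables, since its expected counts of 290.35 and 337.51 were not whole numbers. The tables give Snrpd2-201 a length of 613 bases and Snrpg-201 350 bases, where M21 gives 1420 and 1055 bases. At the same counts, longer models would lower the TPM of Snrpd2 and Snrpg, so their places in these tiers depend on the annotation.

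Snrpb-204 is a transcript of Snrpb (ENSMUSG00000027404.11, mm10 chr2:130171414-130179403, minus strand) that keeps intron sequence after exon 2, 163 bases at chr2:130176852-130177014. The exon-intron border is printed because this transcript changed its share between the libraries more than that of any other Sm gene: the last 30 bases of exon 2 are in lower case and the first 30 bases of the kept intron, which begins with the usual GT of a 5′ splice site, are in capitals, on the minus strand of mm10.
Snrpb-204, chr2:130176985-130177044: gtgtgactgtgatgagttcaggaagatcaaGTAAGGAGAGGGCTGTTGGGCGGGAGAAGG
Snrpb-204 had 78.44 TPM in replicate 1 and 306.86 TPM in replicate 2, which was 12.5% and 43.54% of the gene. In counts the shares were smaller, 3.68% and 16.9%, from 1191.85 and 5822.9 expected counts, because the transcript has 416 bases against 1161 for the coding Snrpb-201. Snrpb-201 itself had 547.75 and 394.87 TPM. Snrpb as a gene was thus higher in replicate 2 by TPM, 1.12-fold, and lower there by counts scaled to library size, with a log2 ratio of −0.41. The direction of this gene between the libraries depended on the scale.

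The LSM2-8 ring of the U6 snRNP was uneven, as SF3B was. Lsm4 (ENSMUSG00000031848, mm10 chr8:70673248-70678752, plus strand) had 522.18 and 400.14 TPM, Lsm2 had 235.14 and 265.39 TPM, and Lsm7 had 190.26 and 234.75 TPM. The other 4 subunits were at least an order of magnitude lower in both libraries. Lsm3 had 8.05 and 12.61 TPM and Lsm8, the subunit that sets the nuclear ring apart from the cytoplasmic one, had 4.53 and 14.72 TPM. Lsm6 had 2.17 and 3.83 TPM. Lsm5 (mm10 chr6:56701063-56704710, minus strand) had 0.57 TPM in replicate 1, from 12 counts, and 1.74 TPM in replicate 2, from 44.45 counts. Lsm4 exceeded Lsm5 by 916 times in replicate 1 and 230.0 times in replicate 2, or by 587 and 199 times on the deposited posterior mean TPM, so the size of this range is known only roughly.

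The rings had similar summed levels and unlike medians. The summed TPM was 1317 and 1457 for the 7 Sm genes and 963 and 933 for the 7 LSM genes. By medians the Sm ring was 18.2 times higher in replicate 1 and 9.49 times higher in replicate 2, a mean log2 ratio of 3.72 ± 0.66 (SD, n = 2). The ratio of the sums gave a log2 value of 0.55, since Lsm4, Lsm2 and Lsm7 carried most of the LSM sum. The size of this difference therefore depended on how a ring was summarised, and its direction did not.

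LSM1 replaces LSM8 in the cytoplasmic ring that acts in RNA decay, and Lsm1 had 6.29 and 4.27 TPM. Lsm1 was above Lsm8 in replicate 1 and below it in replicate 2. LSM10 and LSM11 replace Sm proteins in the U7 snRNP, which processes histone RNAs; Lsm11 had 37.82 and 24.35 TPM and Lsm10 had 9.55 and 12.73 TPM. The larger LSM-domain proteins were of middle level: Lsm12 had 113.83 and 142.24 TPM, Lsm14b had 56.76 and 44.85 TPM, and Lsm14a had 47.22 and 38.55 TPM.

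In the U5 snRNP and the tri-snRNP, the highest gene by TPM was Snrnp27 at 162.34 and 192.74 TPM. Of this, 124.72 and 140.87 TPM came from Snrnp27-204, a form of 372 bases with no annotated reading frame. The coding Snrnp27-201 had 36.37 and 50.65 TPM, below the genes Prpf8, Snrnp40 and Prpf31 in both libraries. Prpf8 (mm10 chr11:75486816-75509449, plus strand), the large protein at the centre of the spliceosome, had 54.48 and 90.94 TPM. Snrnp200, the helicase that unwinds U4 from U6, had 24.61 and 33.47 TPM, and the U5 protein Snrnp40 had 64.55 and 73.95 TPM. Prpf31, Prpf6, Prpf3 and Prpf4 hold the U4/U6 and U5 parts together. Prpf31 had 51.29 and 58.37 TPM, Prpf6 had 19.98 and 28.11 TPM, Prpf3 had 13.29 and 17.72 TPM, and Prpf4 was the lowest at 2.48 and 4.08 TPM. All 8 genes were higher in replicate 2, on the TPM scale and in scaled counts alike. Of all tested genes, 51.3% were higher in replicate 2 in scaled counts. The log2 ratios of the 8 genes ran from 0.01 (Snrnp40) to 0.92 (Prpf4). The distance between Prpf8 and Prpf4 stayed nearly the same, at 22.0 and 22.3 times, while that between Snrnp27 and Prpf4 was 65.5 and 47.2 times. The median of the SF3B genes of the set was 3.53 and 2.40 times that of the 5 tri-snRNP Prpf genes, a log2 ratio of 1.54 ± 0.39. The name rule leaves out Phf5a, a further SF3B subunit, which had 8.8 and 14.29 TPM. Including it would lower the SF3B median from 70.57 and 67.56 TPM to the level of Sf3b1, 31.3 and 35.61 TPM. The median of the 5 Prpf genes was 19.98 and 28.11 TPM, so the size of this ratio depended on leaving Phf5a out.

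Factors of activation and later steps were spread over a similar range. Prpf38b had 114.79 and 114.86 TPM, whereas its paralogue Prpf38a, which joins at activation, had 3.54 and 5.19 TPM. Prpf19, the ubiquitin ligase of the complex that stabilises the active spliceosome, had 87.66 and 82.42 TPM. Prpf18, which acts at the second chemical step, had 23.51 and 42.09 TPM. Of this, 21.1 and 38.36 TPM came from Prpf18-203, which has no annotated reading frame, and the coding Prpf18-201 had 1.64 and 2.06 TPM. The kinase gene Prpf4b had 10.59 and 17.8 TPM. The minor spliceosome, which removes a rare class of introns, was represented by Snrnp48 at 58.71 and 66.36 TPM and Snrnp35 at 24.08 and 26.86 TPM.

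Base composition moved with level. GC content was taken from the transcript of highest mean TPM of each gene. Across the 56 genes the Spearman correlation of GC content with TPM was 0.616 in replicate 1 and 0.607 in replicate 2. Over 8500 detected protein-coding genes it was 0.398 and 0.364. These are descriptions across genes that share the same libraries, and the same correlation in both libraries is not independent evidence. The 21 genes at 100 TPM or more had a median GC content of 54.2% (41.3% to 62.2%), and the 7 genes under 10 TPM in both libraries had 44.8% (36.6% to 47.1%). In the LSM ring, Lsm4 had 59.4% GC, and Lsm5, Lsm8 and Lsm6 had 36.6%, 42.9% and 45.9%. Snrpd1, at 43.1% GC and 299.9 ± 35.1 TPM, and Snrpf, at 41.3% and 143.1 ± 4.68 TPM, were of low GC content and high level. The part of base composition in the levels above was not tested.

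**Figure D2:**
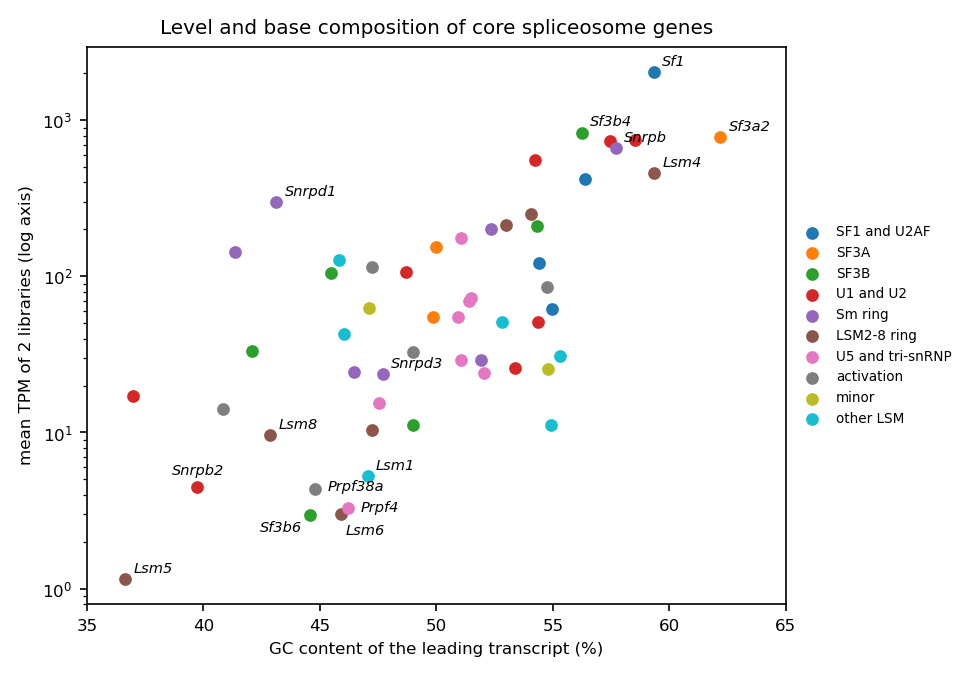
Mean TPM of the 2 libraries (log axis) against the GC content in percent of the leading transcript for each of the 56 genes, coloured by complex. The 7 genes under 10 TPM in both libraries all lie below 48% GC, while genes at 100 TPM or more run from 41.3% to 62.2%.

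Transcripts annotated as coding carried most of the RNA of these genes. They held 91.5% of the summed TPM of the 56 genes in replicate 1 and 88.4% in replicate 2 (89.9 ± 2.18), against 75.6 ± 1.36% over all protein-coding genes. Retained-intron transcripts held 1.27% and 3.93%, against 12.5% and 13.1% over all protein-coding genes. Most of this in the set was Snrpb-204 alone, with 78.44 and 306.86 TPM of the 10949.7 and 9987.95 TPM of the 56 genes. Transcripts with no type in M21, here counted as not coding, held 3.24% and 2.06% over all protein-coding genes and 0 in the set. NMD transcripts held 4.82% and 4.41%, against 2.53% and 2.17%, and without Sf1 they held 3.00% and 2.67%. In counts the NMD share was higher, 8.31% and 6.88%, against 2.43% and 2.09%, and without Sf1 it was 3.50% and 2.63%. Without Sf1 the coding share was 90.5 ± 2.56%. Short transcripts weigh more in TPM than in counts: coding transcripts took 90.6% and 91.3% of the counts of the 56 genes, and 86.3% and 87.5% over all protein-coding genes.

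The transcript with the highest mean TPM was not a coding one in 8 of the 56 genes (14.3%), against 19.7% of detected protein-coding genes. That background also counts leading transcripts with no type in M21, of which the 56 genes had none. Of the 8581 detected protein-coding genes, 8500 had a leading transcript with an M21 sequence. For 4 of the 8 genes the leading transcript was annotated as an NMD target. These were Snrpa1-201 with 94.85% and 94.93% of the gene's TPM, Lsm11-201 with 98.41% and 97.28%, Snrpe-206 with 58.73% and 57.45%, and Prpf38b-204 with 77.8% and 47.1%. The first 3 shares differed little between the libraries. For Snrnp27 and Prpf18 the leading transcript was a processed transcript, a class with no annotated reading frame. Prpf18-203 held 89.77% and 91.14% of the TPM of Prpf18 but 52.9% and 59.4% of its counts, and Snrnp27-204 held 76.83% and 73.09% of the TPM but 53.0% and 47.7% of the counts. Both shares were thus larger on the scale per length than in counts. For Snrpb2 the leading transcript was the retained-intron form Snrpb2-203, at 0.99 and 2.24 TPM, with deposited intervals of 0.164 to 1.38 and 0.275 to 3.07. Its lead was slight, since Snrpb2-204, also a retained-intron form, had 2.12 and 1.03 TPM. In counts Snrpb2-203 took 10.6% and 15.9% of the gene, Snrpb2-204 84.4% and 27.6%, and the coding Snrpb2-201 0 and 53.7%.

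Of the 44 genes with 2 or more annotated transcripts, 40 (90.9%) had the same leading transcript in both libraries, against 86.7% of detected protein-coding genes of that kind. The other 4 were Prpf31, Prpf38b, Lsm12 and Snrpb2. In Prpf31 the leading coding form was Prpf31-202 in replicate 1 (59.5%) and Prpf31-201 in replicate 2 (74.51%), and in Lsm12 the processed transcript Lsm12-203 had 38.17% and 53.28% of TPM and led in replicate 2, though it took 9.21% and 15.7% of the counts. Snrpb2 had 236 and 445 counts in all; Snrpb2-204 had 60.09% and 19.28%, and the coding Snrpb2-201 was listed at 0 in replicate 1 and had 32.9% in replicate 2. A shift of 20 percentage points or more in some transcript was seen in 6 of the 44 genes, against 16.1% of detected protein-coding genes with 2 or more transcripts. They were Prpf3, Prpf31, Prpf38b, Prpf4, Snrpb and Snrpb2. In Prpf3 the coding form Prpf3-201 had 38.5% and 73.4%, and the short Prpf3-202 had 26.25% in replicate 1 and was listed at 0 in replicate 2. These shares are estimates from reads that the forms share, and no test of them was made.

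The Prpf38b gene (mm10 chr3:108902805-108911727, minus strand) joined a total that was steady by TPM to a shifting division. Its level was 114.8 ± 0.0495 TPM, while in scaled counts it was lower in replicate 2, with a log2 ratio of −0.19. Prpf38b-204 had 89.31 TPM in replicate 1 and 54.1 TPM in replicate 2, while the coding Prpf38b-201 had 24.38 and 59.03 TPM, and the deposited intervals of each form did not overlap between the libraries. In M21 the forms are told apart by an exon of 53 bases, chr3:108910343-108910395, exon 2 of Prpf38b-204, which is absent from Prpf38b-201. The annotated stop codon of Prpf38b-204 lies at bases 4 to 6 of that exon. The tables give Prpf38b-204 a length of 3188 bases, which is not the length of its M21 model, so the ends of the form counted there may differ.

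**Figure D3:**
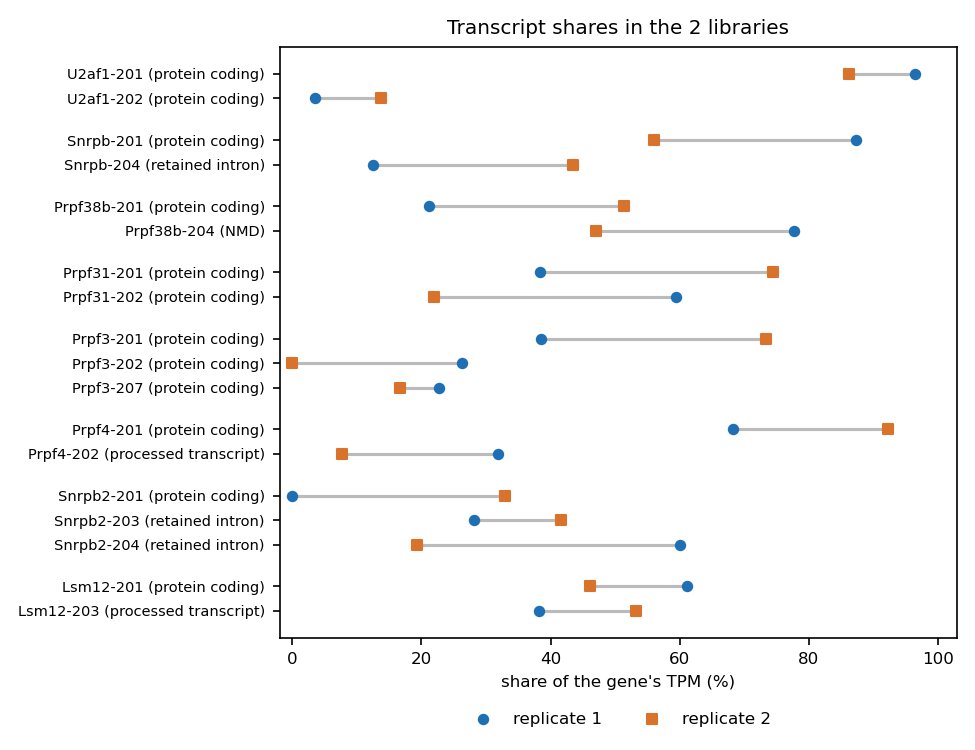
Share of the gene's TPM in percent for the transcripts of 8 core spliceosome genes that held at least 10% in 1 library, in replicate 1 (circles) and replicate 2 (squares), with the annotated type in brackets. U2af1-201 led in both libraries at 96.5% and 86.32%, while Prpf38b-204 led in replicate 1 and Prpf38b-201 in replicate 2.

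Few of these genes differed strongly between the libraries. Expected counts, rounded and scaled to library size, were compared by a two-sided exact conditional binomial test with Benjamini-Hochberg adjustment over 11636 tested genes, and a gene was called at an adjusted p under 0.05 and at least 2-fold. The test covers counting error only and compares these libraries. Of the 56 genes, 2 were called higher in replicate 2, against 3.82% of all tested genes, and 0 were called higher in replicate 1, against 1.80%. Lsm8 was 2.75-fold higher in replicate 2 (log2 ratio 1.46), from 189 and 734 counts, with an adjusted p of 1.6e-40 by the exact test. Lsm5 was 2.59-fold higher (log2 ratio 1.38), from 12 and 44.45 counts, with an adjusted p of 0.00485 by the exact test. The deposited TPM intervals of Lsm5, 0.434 to 1.38 in replicate 1 and 1.41 to 2.59 in replicate 2, lay side by side, whereas those of Lsm8, 3.85 to 5.19 and 13.5 to 15.7, were well apart. With no fold required, 50 of the 56 genes (89.3%) passed the exact test, against 64.4% of tested genes. Passing with no fold depends on the number of counts as well as on the difference. Tested genes enter from 10 counts, so this background is not matched to the set for level.

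Smaller differences ran in both directions. In scaled counts 31 of the 56 genes were higher in replicate 2 and 25 in replicate 1, where 51.3% of all tested genes were higher in replicate 2. The median log2 ratio was 0.03 for the set and 0.01 for all tested genes. By TPM, 39 were higher in replicate 2 and 17 in replicate 1, so the split moved with the scale, and 8 genes changed direction. The median TPM fold was 1.14 over the 56 genes and 1.09 over detected protein-coding genes. At 1.5-fold, 5 of the 56 genes passed as higher in replicate 2, against 9.86% of all tested genes, and 4 as higher in replicate 1, against 4.66%, so the set was near the background. The first were Lsm8, Lsm5, Prpf4 (log2 ratio 0.92), Prpf3 (0.71) and Prpf4b (0.59), and the others were Lsm11 (−0.76), Lsm1 (−0.72), Snrpa (−0.65) and Sf3a2 (−0.63).

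The differences between libraries moved with GC content and level. Across the 56 genes the Spearman correlation of GC content with the log2 ratio was −0.434, and over 11493 tested genes it was −0.286. Of the 21 genes at 100 TPM or more, 14 were lower and 7 higher in replicate 2 (median log2 ratio −0.17). Of the 7 genes under 10 TPM, 6 were higher in replicate 2 (median 0.42); the exception was Lsm1. With the trend on GC content removed, an alternative chosen after seeing the data, Lsm8 was still called with a log2 ratio of 1.29 and Lsm5, at 0.99, was not (adjusted p 0.0614 by the exact test).

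**Figure D4:**
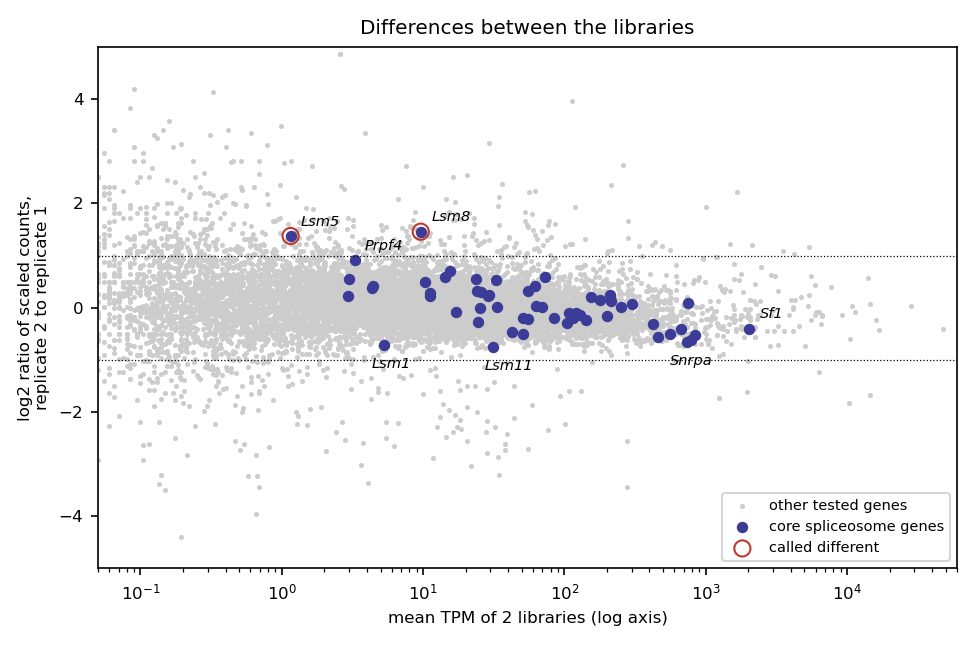
Log2 ratio of scaled counts, replicate 2 to replicate 1, against mean TPM (log axis) for the 56 core spliceosome genes (large points) and other tested genes (small points, of which 115 of 11579 fall outside the axes), with dotted lines at a 2-fold difference. Lsm8 at 1.46 and Lsm5 at 1.38 are the core genes beyond the lines.

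The wider splicing machinery had a lower median than the core set. Of a list of 60 further genes for spliceosome subunits, helicases and snRNP assembly, 58 were detected and 10 reached 100 TPM in both libraries, with a median of 28.7 TPM in replicate 1 and 34.2 TPM in replicate 2. The highest were Ddx39b, a helicase of early assembly and export, at 357.04 and 365.03 TPM, Eftud2, the U5 GTPase, at 247.18 and 336.88 TPM, and Snu13, a U4 snRNA-binding protein, at 123.08 and 440.54 TPM. The lowest were Zrsr1 at 0.59 and 0.69 TPM, Gemin6 at 0.94 and 1.45 TPM and Snupn at 1.69 and 2.39 TPM. Snu13 (log2 ratio 1.67) and Cdc40 (2.15 and 5.66 TPM, log2 ratio 1.23) were called higher in replicate 2, and 0 of the 60 were called higher in replicate 1; the shares over all tested genes, 3.82% and 1.80%, are of that order. Eftud2, a partner of Prpf8 and Snrnp200 in the U5 snRNP, stood above both of them in each library.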

How the data were processed

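The 2 libraries of polyadenylated G1E RNA formed 1 group. Per the file headers, the authors deposited gene and transcript tables for each library, on mm10 with GENCODE M4; the quantification tool is not given in the sources used here. The deposited expected counts are estimated read pairs, and reads shared between features were divided, which leaves fractions. The authors' deposited TPM is scaled by effective length and by library total, and the percent per transcript (IsoPct) is the authors' share of the gene's TPM. The deposited TPM intervals come from the authors' posterior estimates.

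Of 43346 entries, 42462 (98.0%) were matched by identifier to GENCODE M21, which gave symbols, types, positions and sequences; for 226 of 253 transcripts of the 56 genes the M21 length was that of the tables. All 56 genes passed the filter of 10 counts in at least 1 library. The between-library test used rounded expected counts and TMM factors (0.960 and 1.04) from edgeR 4.0.16 in R 4.3.3; with 1 library a side, edgeR's own test has no residual degrees of freedom. Alternative size factors came from DESeq2 1.42.0. The exact test was run with SciPy 1.17.1 in Python 3.11.15, tables were handled with NumPy 2.4.6 and pandas 2.3.3, plots were drawn with matplotlib 3.10.9, and the test script was tested on simulated data. Of the 56 genes, 46 had whole counts in both libraries (within 0.005), and for the other 10 the deposited posterior SD of the count was at most 2.92% of its mean. The test covers counting error alone, and without molecular identifiers the read pairs need not be separate molecules.

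The genes, lists, named-gene rule (highest and lowest of each complex, genes called different, genes with a changed or non-coding leading transcript, and any other of the 56) and alternatives were chosen with earlier results of these data known. The values of 1 gene of the set are not reported here, though it is counted in the totals.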

Additional observations from a re-analysis of the deposited data

How the results depend on the processing

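Of 42 alternative values over 9 results, 32 stayed within the spread or within 1.5 times and 10 moved. Some of the 32 could not have moved. For results given as mean ± SD, each library alone always lies within 1 SD of the mean. With 55 of the 56 genes already detected, a lower detection threshold could not move that count either. These values are no sign of stability. Scaled per annotated length, the median level was 61.9 TPM rather than 55.2. The log2 ratio of the Sm ring to the LSM2-8 ring was 0.55 from sums and 2.00 from geometric means, an alternative chosen after seeing the data, rather than 3.72. The 2 genes called different between the libraries became 1 with at least 50 counts, 9 at 1.5-fold, 0 at 4-fold and 1 with the GC trend removed. The median log2 ratio of 0.03 became 0.14 with library totals, 0.19 on log2(TPM + 1) and −0.030 with the GC trend removed; the cause was not tested. Among all tested genes, those called higher in replicate 2 and in replicate 1 numbered 444 and 210, against 1147 and 542 at 1.5-fold, 96 and 73 at 4-fold, and 312 and 109 with at least 50 counts. Leaving out either library gave 55 to 56 genes detected, 21 to 22 at 100 TPM, a median of 54.2 to 56.3 TPM, ring ratios of 3.25 to 4.18, SF3B to Prpf ratios of 1.27 to 1.82 and coding shares of 88.4% to 91.5%; the between-library comparison needs both. No paired analysis was possible because the libraries form 1 group. Depth limits Lsm5 above all, with 12 counts in replicate 1.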

Other observations

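The genes left out by name were also expressed. Snrpn, which encodes a protein closely related to the Sm protein of Snrpb, had 95.02 TPM in replicate 1 and 80.66 TPM in replicate 2. Snrnp25, of the minor spliceosome, had 72.07 and 65.68 TPM, above Snrnp48 and Snrnp35 in replicate 1. The processed pseudogene Snrpert had 1.33 and 2.26 TPM, from 10 and 21 counts.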
